A study of Mus musculus with 60 samples.

Results

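The genes examined here write, erase and scaffold lysine acetylation: 10 acetyltransferases, 3 steroid receptor coactivators, 11 zinc-dependent histone deacetylases, 7 sirtuins and 3 corepressor scaffolds. They were taken by symbol from the deposited expression table, which held all 34 of them among 24508 gene symbols. Hippocampus of wild-type (WT) mice was compared with that of R6/1 mice, a Huntington's disease model that carries exon 1 of the human huntingtin gene with an expanded CAG repeat under the human promoter, so that the transgene is not limited to one cell type. All mice were 30 weeks old and on a CBA x C57BL/6 background, and no treatment other than the genotype is named. The expression data are 9 biological replicates of each genotype, and the lamin B1 ChIP-seq, 3 replicates of each, used pools of 5 mice.

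Acetyltransferases add acetyl groups, taken from acetyl-CoA, to lysines of histone tails and of other proteins, which loosens chromatin and creates docking sites for bromodomain proteins. Histone deacetylases remove these groups by a zinc-dependent reaction, while sirtuins do so at the expense of NAD+. In hippocampus, CREB-binding protein and HDAC2 are known for opposite effects on memory formation, and sequestration of CREB-binding protein by mutant huntingtin has long been studied in Huntington's disease.

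Expression is given as RPKM (reads per kilobase of transcript, scaled for depth by the authors), so that levels can be compared between genes. The libraries held between 12299434 and 16736544 reads on genes, and a library held between 69 reads (lowest, Sirt4) and 5218 reads (highest, Ncor1) on a gene of the group. All 34 passed the filter on low values, a mean of at least 0.5 RPKM over the 18 libraries, which 14446 genes passed. Each gene was tested with limma on log2(RPKM + 0.5) with Benjamini-Hochberg adjustment over those 14446 genes, and a gene is called here if its adjusted p was under 0.05. Fold changes are log2 differences on that scale, R6/1 minus WT. The R6/1 hippocampus differed widely: 48.3% of all tested genes were called, 24.8% higher and 23.5% lower.

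In WT hippocampus the deacetylases and sirtuins held both ends of the range of levels. Hdac11, the sole class IV deacetylase, was the most abundant at 74.1 ± 3.84 RPKM (SD, n = 9), and its lowest library (69.2) lay above the highest of the next gene. Sirt2, a largely cytoplasmic tubulin deacetylase, followed at 53.0 ± 4.10 RPKM, again without overlap with the next, Hdac5, at 39.6 ± 3.35 RPKM. Below these, neighbours in the order overlapped except for the steps from Kat2a (20.7 RPKM) to Kat5 (18.6 RPKM) and from Kat5 to Kat7 (15.5 RPKM). The acetyltransferases lay in the middle, from Kat2a down to Kat2b at 6.38 RPKM. Hdac8 was the least abundant at 3.79 ± 0.488 RPKM, and its libraries overlapped those of Hdac10 at 3.90 ± 0.759 RPKM. The coefficient of variation between WT libraries ran from 3.65% (Kat5) to 21.8% (Sirt4).

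**Figure D1:**
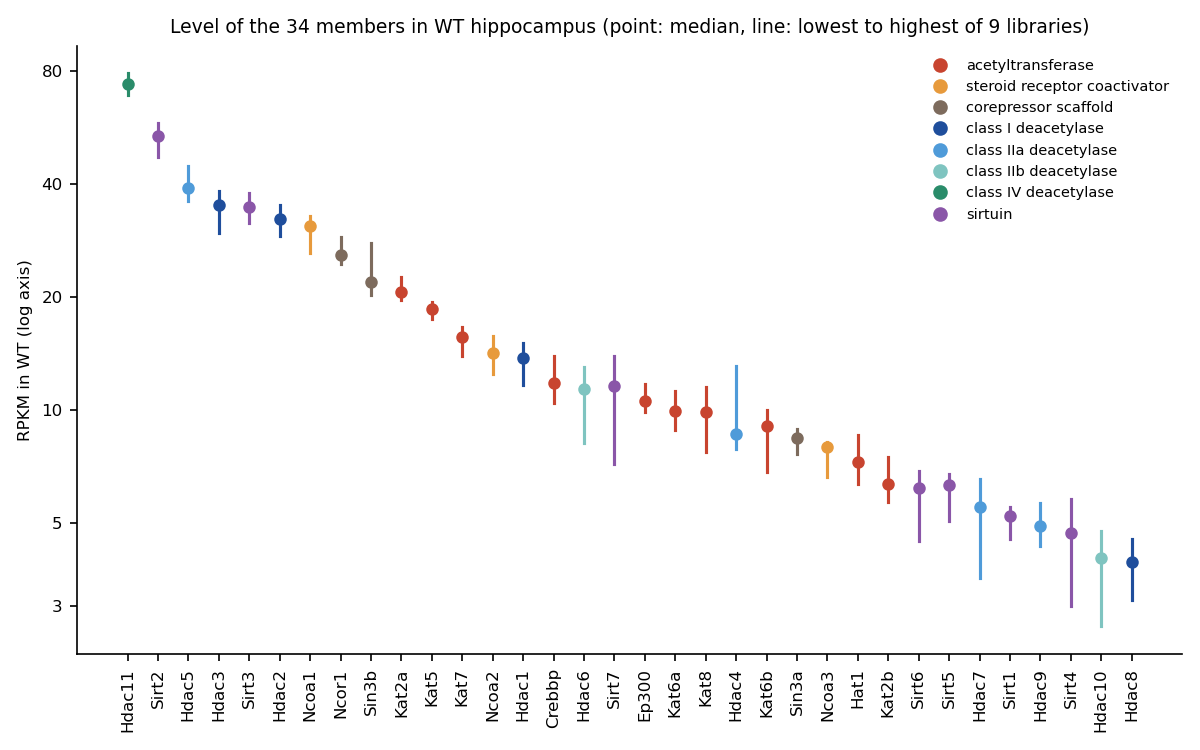
Level of each of the 34 genes in WT hippocampus, in RPKM on a log axis, ordered by mean and coloured by family; the point is the median and the line spans the lowest to the highest of 9 libraries. Hdac11 and Sirt2 stand above the rest, and most neighbours further down overlap.

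Between genotypes, 13 of the 34 genes rose and 4 fell, while 17 did not pass. The share called, 50.0%, was close to the 48.3% of all tested genes, so a call as such did not set the group apart. The rises made up 38.2% of the group beside 24.8% of all tested genes, and the falls 11.8% beside 23.5%. By family, 8 of the 10 acetyltransferases and 2 of the 3 coactivators rose and none of them fell, whereas 1 of the 11 zinc deacetylases rose and 3 fell, and 1 sirtuin rose and 1 fell. All changes were modest, between -0.43 and 0.45 on the log2 scale, with a median of 0.06 over the group and 0.00 over all tested genes; the median absolute change was 0.15 in the group and 0.16 over all tested genes. In 7 of the 34 genes (20.6%, beside 11.9% of all tested genes) the 9 libraries of one genotype did not overlap those of the other: Kat5, Kat7, Ncoa1, Ncoa2, Sin3a and Sirt1 were higher in every R6/1 library (6 genes, 17.6%, beside 5.50%), and Hdac9 was lower in every R6/1 library (1 gene, 2.94%, beside 6.38%).

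**Figure D2:**
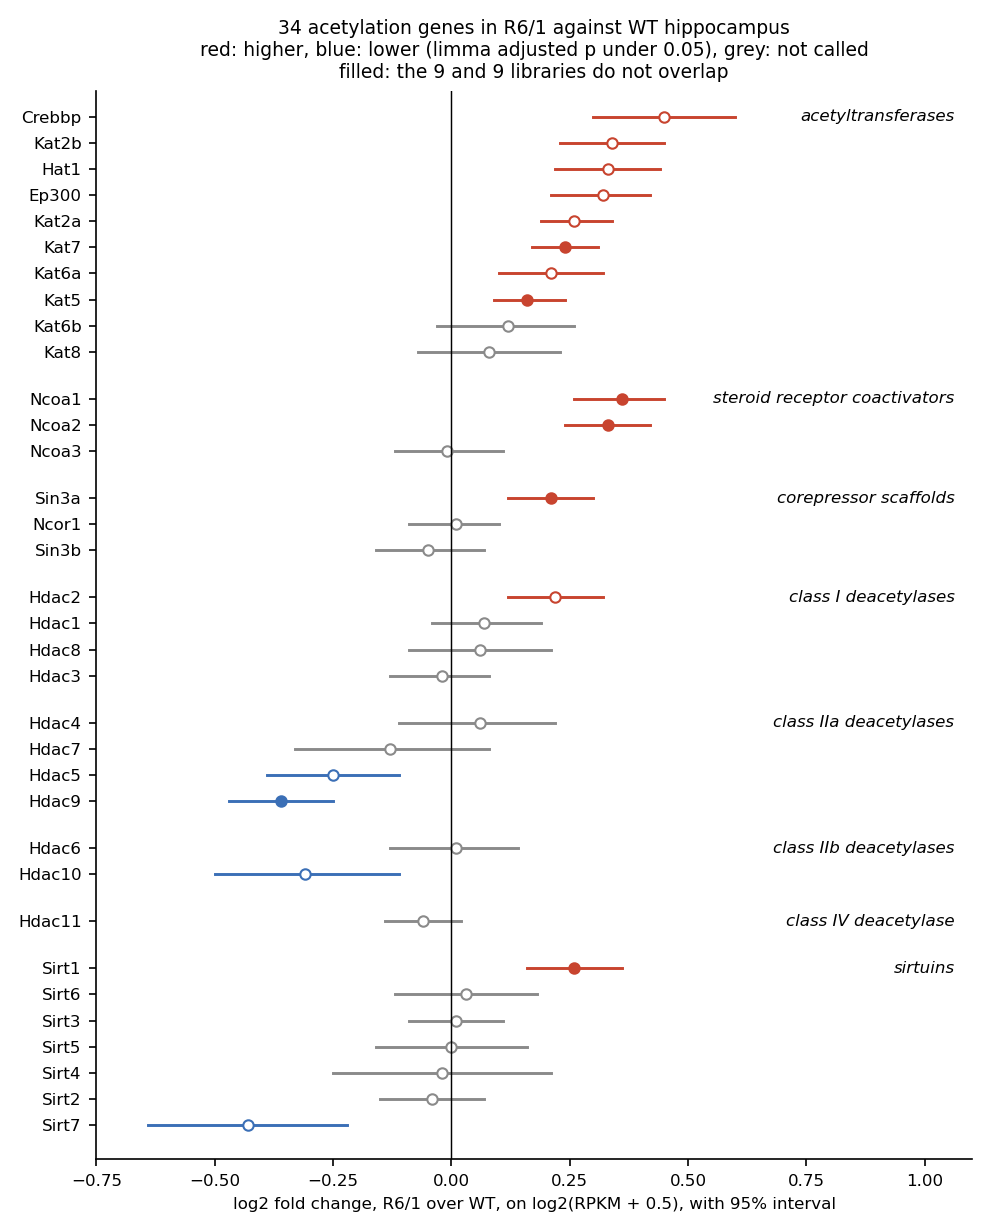
Difference between genotypes for the 34 genes by family: log2 fold change of R6/1 over WT with its 95% interval, red where higher, blue where lower and grey where not called. Filled points mark the 7 genes whose libraries did not overlap. The acetyltransferases lie to the right of 0, from 0.08 (Kat8) to 0.45 (Crebbp), and the 4 falls are Sirt7, Hdac9, Hdac10 and Hdac5.

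The group's counts did not rest on the test or on a library, but the shares over all tested genes moved with the scaling. The authors' deposited table calls the same 17 genes, 13 higher and 4 lower, where it calls 20.0% of its 18395 genes higher and 20.4% lower. When RPKM was recomputed from each library's own read total, the median over all genes moved to 0.07, 5110 genes were higher (35.4%) and 2526 lower (17.5%), and the group's counts were 14 (41.2%) and 4 (11.8%), Kat6b being the addition. The group's median was then 0.13. Its share of rises lay nearer to that of all tested genes than in the main fit, 38.2% beside 24.8%.

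Promoter sequences of 6 genes that were called are shown to let a reader see how widely the promoters of the group differ in base composition. RefSeq windows (build GRCm38.p6) were found for 28 of the 34 genes, 40 windows in all; Hdac1, Hdac3, Hdac10, Kat6a, Ncoa2 and Ncoa3 had no match. The 250 bases before the transcription start are given for 4 genes that rose, Crebbp (chr16:4213405-4213654, minus strand), Ncoa1 (chr12:4477183-4477432, minus strand), Sirt1 (chr10:63339036-63339285, minus strand) and Kat7 (chr11:95310247-95310496, minus strand), and for 2 that fell, Hdac5 (chr11:102230173-102230422, minus strand) and Hdac9 (chr12:34917096-34917345, minus strand, the farther upstream of its 2 starts). Capitals mark GGGCGG (the GC box) and TGACG (the core of the cyclic AMP response element), each on either strand.
Crebbp: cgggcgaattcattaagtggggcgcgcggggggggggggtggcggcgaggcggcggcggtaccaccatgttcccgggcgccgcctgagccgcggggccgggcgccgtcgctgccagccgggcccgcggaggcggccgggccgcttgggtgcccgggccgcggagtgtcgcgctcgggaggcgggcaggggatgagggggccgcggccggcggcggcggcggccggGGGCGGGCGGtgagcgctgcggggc
Ncoa1: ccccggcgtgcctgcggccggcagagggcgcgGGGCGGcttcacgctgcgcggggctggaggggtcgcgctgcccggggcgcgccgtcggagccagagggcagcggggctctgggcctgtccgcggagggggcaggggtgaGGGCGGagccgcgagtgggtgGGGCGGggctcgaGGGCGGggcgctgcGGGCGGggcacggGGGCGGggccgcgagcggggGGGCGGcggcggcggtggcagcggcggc
Sirt1: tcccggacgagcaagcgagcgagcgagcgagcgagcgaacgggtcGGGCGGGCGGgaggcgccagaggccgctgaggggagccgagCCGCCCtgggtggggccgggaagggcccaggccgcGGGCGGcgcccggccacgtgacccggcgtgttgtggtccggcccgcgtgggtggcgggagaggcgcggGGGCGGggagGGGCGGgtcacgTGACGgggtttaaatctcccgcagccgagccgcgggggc
Kat7: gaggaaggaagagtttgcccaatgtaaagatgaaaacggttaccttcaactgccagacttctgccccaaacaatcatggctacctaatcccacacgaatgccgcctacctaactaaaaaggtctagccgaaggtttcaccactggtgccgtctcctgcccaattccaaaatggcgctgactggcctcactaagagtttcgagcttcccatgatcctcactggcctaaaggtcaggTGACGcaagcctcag
Hdac5: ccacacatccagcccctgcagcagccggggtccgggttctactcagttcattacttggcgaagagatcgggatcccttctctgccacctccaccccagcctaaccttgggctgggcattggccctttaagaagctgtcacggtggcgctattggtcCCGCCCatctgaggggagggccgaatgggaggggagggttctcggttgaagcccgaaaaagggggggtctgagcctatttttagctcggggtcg
Hdac9: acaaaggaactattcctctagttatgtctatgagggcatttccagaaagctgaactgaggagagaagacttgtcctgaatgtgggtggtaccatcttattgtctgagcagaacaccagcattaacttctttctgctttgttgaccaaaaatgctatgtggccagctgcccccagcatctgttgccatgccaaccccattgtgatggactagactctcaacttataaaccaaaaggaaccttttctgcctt

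The Crebbp and Ncoa1 windows had a GC content of 84.0% and 85.6% with 44 and 40 CpG pairs, and Sirt1 had 79.2% with 39. The Kat7 window had 50.8% with 8 CpG pairs and Hdac5 had 60.8% with 12, while the Hdac9 window had 44.4% with 0. Over the 40 windows of the group the median was 14.5 CpG pairs, against 6.00 over the 32851 windows of the whole table. GGGCGG stood in 62.5% of the group's windows and 32.7% of all windows, and TGACG in 35.0% and 17.8%. By gene, GGGCGG was found in 8 of 11 genes that rose, 2 of 3 that fell and 12 of 14 that were not called, and TGACG in 6 of 11, 0 of 3 and 6 of 14. The full element TGACGTCA, which contains TGACG, was in 0 of the 40 windows and in 1.55% of all. CCAAT was in 16 of the 40 windows (33.8% of all), CCGGAAG, a core of ETS factor sites, in 12.5% (6.91%), the E-box CACGTG in 7.50% (6.02%), TATAAA in 7.50% (12.4%) and the palindromic NRF1 core in 2.50% (0.782%). Both strands were searched throughout, and short GC-rich letters are found more often in GC-rich windows. The 32851 windows were not limited to the tested genes, and a gene with several starts counts once for each window.

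Both CREB-binding coactivators rose, Crebbp by the most of any acetyltransferase. Crebbp, which encodes CREB-binding protein (chromosome 16, 4084048 to 4213404, minus strand; build NCBIM37 here and below), ranged from 10.4 to 14.0 RPKM in WT (median 11.8) and from 11.9 to 19.5 RPKM in R6/1 (median 16.8). In 8 of 9 R6/1 libraries it lay above every WT library, and R6/1 replicate 2, the lowest, lay among the WT values. The log2 fold change was 0.45 (SE 0.072, limma adjusted p 3.65e-05), and 0.51 without that library. Ep300, the close paralogue p300 (chromosome 15, 81415781 to 81482507, plus strand), ranged from 9.88 to 11.8 RPKM in WT (median 10.6) and from 11.5 to 15.1 RPKM in R6/1 (median 13.8). Again 8 of 9 R6/1 libraries lay above the WT range and R6/1 replicate 2 did not (log2 fold change 0.32, SE 0.051, limma adjusted p 3.31e-05). Crebbp was 1.11 ± 0.102 times as abundant as Ep300 in WT and 1.22 ± 0.0988 times in R6/1, and these ratios overlapped between genotypes.

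Both GCN5-type acetyltransferases rose. Kat2a, or GCN5, the catalytic subunit of the SAGA and ATAC coactivators (chromosome 11, 100566060 to 100573779, minus strand), ranged from 19.7 to 22.7 RPKM in WT (median 20.6) and from 22.6 to 26.7 RPKM in R6/1 (median 25.3). A single WT library, replicate 3, reached into the R6/1 range (log2 fold change 0.26, SE 0.035, limma adjusted p 4.33e-06). Kat2b, or PCAF, its paralogue (chromosome 17, 53706186 to 53812045, plus strand), ranged from 5.69 to 7.51 RPKM in WT (median 6.37) and from 7.50 to 8.70 RPKM in R6/1 (median 8.18). The groups met at their edges, with 8 of 9 R6/1 libraries above the WT range (log2 fold change 0.34, SE 0.053, limma adjusted p 2.44e-05). Hat1, which acetylates newly made histone H4 before it is deposited on DNA (chromosome 2, 71227015 to 71279679, plus strand), ranged from 6.37 to 8.58 RPKM in WT (median 7.28) and from 8.49 to 10.2 RPKM in R6/1 (median 9.03). WT replicate 2 alone lay above the lowest R6/1 libraries (log2 fold change 0.33, SE 0.053, limma adjusted p 3.94e-05).

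Of the 5 MYST-family acetyltransferases, 3 rose, where 24.8% of all tested genes did. Kat7, or HBO1, which acetylates histone H3 and H4 and acts at replication origins, ranged from 13.9 to 16.6 RPKM in WT (median 15.6) and from 17.3 to 19.4 RPKM in R6/1 (median 18.1), with no overlap (log2 fold change 0.24, limma adjusted p 1.02e-05). Kat5, or TIP60, the catalytic subunit of the NuA4 complex, ranged from 17.5 to 19.4 RPKM in WT (median 18.6) and from 19.6 to 23.1 RPKM in R6/1 (median 20.6). Its groups did not overlap either (log2 fold change 0.16, limma adjusted p 6.88e-04), but 18.0% of its exonic bases are shared with Rnaseh2c on the opposite strand, and whether the authors' counting used the strand is not given in the sources used here. Kat6a, or MOZ, ranged from 8.83 to 11.2 RPKM in WT (median 9.93) and from 10.0 to 12.8 RPKM in R6/1 (median 11.7), with 6 of 9 R6/1 libraries above the WT range (log2 fold change 0.21, limma adjusted p 0.00290). Kat6b, or MORF, its paralogue, was at 8.78 ± 1.02 RPKM in WT against 9.53 ± 0.895 RPKM in R6/1 and did not pass (limma adjusted p 0.169). Kat8, or MOF, which acetylates lysine 16 of histone H4, was at 9.97 ± 1.27 and 10.5 ± 0.979 RPKM (log2 fold change 0.08, 95% interval -0.07 to 0.23, limma adjusted p 0.370). It shares 6.87% of its exonic bases with Prss8 on the opposite strand.

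The p160 coactivators bind hormone-loaded nuclear receptors and recruit CREB-binding protein and p300. Ncoa1, or SRC-1 (chromosome 12, 4247363 to 4484060, minus strand), ranged from 26.3 to 33.0 RPKM in WT (median 31.1) and from 34.4 to 41.6 RPKM in R6/1 (median 38.8). Every R6/1 library lay above every WT library (log2 fold change 0.36, SE 0.046, limma adjusted p 2.96e-06). Ncoa2 (chromosome 1, 13129186 to 13364164, minus strand) showed the same separation, from 12.5 to 15.8 RPKM in WT (median 14.2) and from 16.2 to 18.9 RPKM in R6/1 (median 18.1; log2 fold change 0.33, SE 0.044, limma adjusted p 4.71e-06). The third of the family, Ncoa3, was at 7.61 ± 0.680 RPKM in WT against 7.57 ± 0.580 RPKM in R6/1 and did not pass (log2 fold change -0.01, 95% interval -0.12 to 0.11, limma adjusted p 0.939). Among the scaffolds that tether class I deacetylases to repressors, Sin3a rose, from a WT range of 7.66 to 8.90 RPKM (median 8.45) to 8.94 to 10.8 RPKM in R6/1 (median 9.81), just clear of overlap (log2 fold change 0.21, limma adjusted p 3.89e-04). Sin3b, its paralogue, was at 22.3 ± 2.21 and 21.6 ± 1.70 RPKM (limma adjusted p 0.508), and Ncor1, the nuclear receptor corepressor, at 26.5 ± 1.57 and 26.7 ± 1.90 RPKM (limma adjusted p 0.910).

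**Figure D3:**
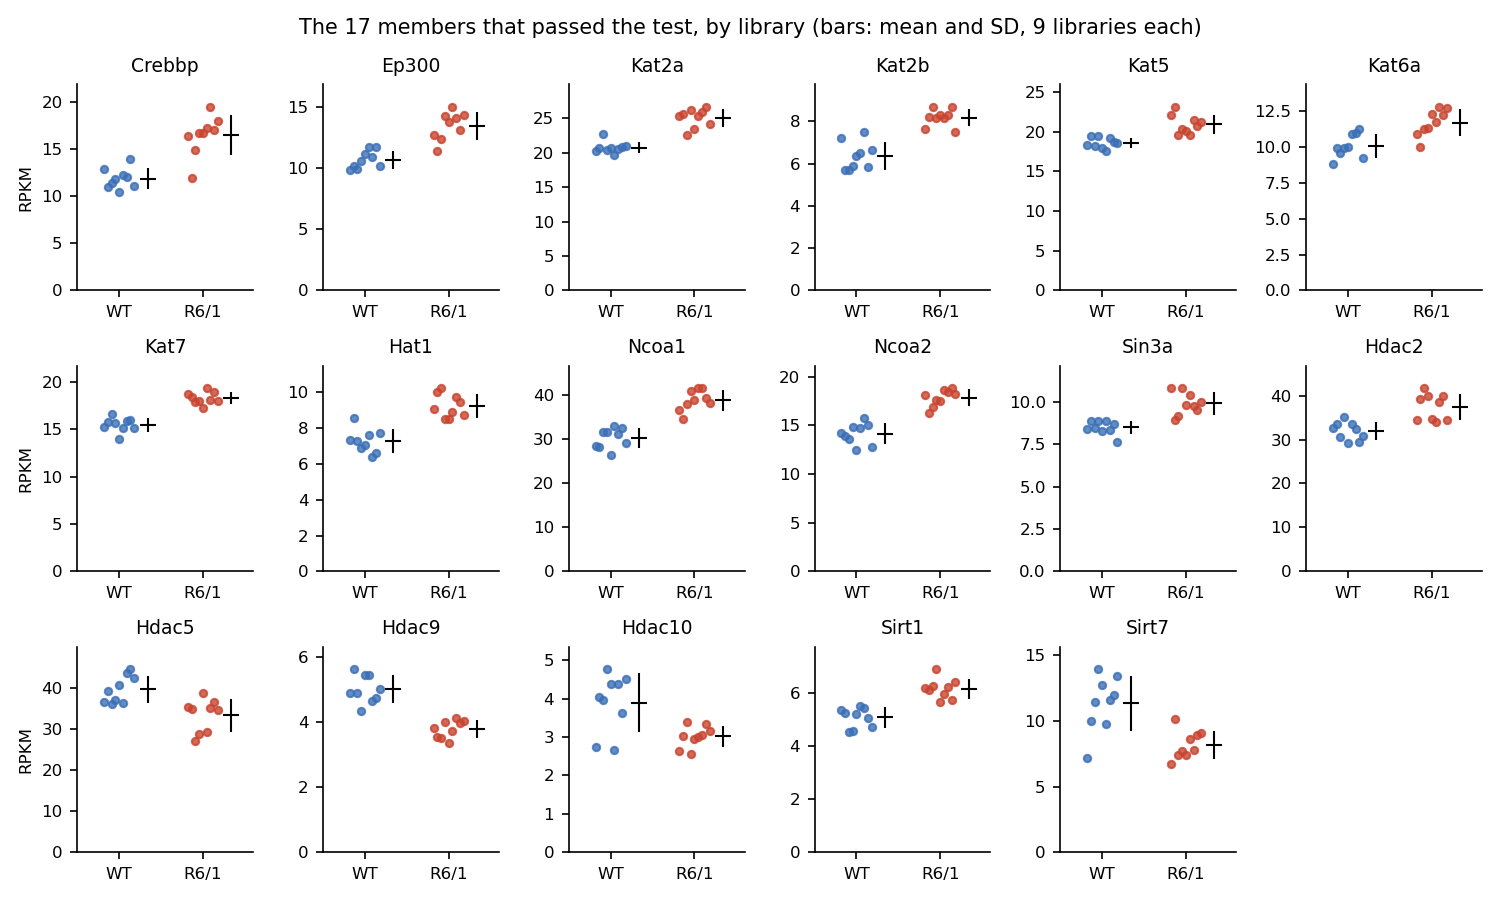
RPKM in each library for the 17 genes that passed the test, WT in blue and R6/1 in red, with mean and SD beside the 9 points of each genotype; every axis starts at 0. The R6/1 mean is higher for 13 genes, of which 6 (Kat5, Kat7, Ncoa1, Ncoa2, Sin3a and Sirt1) show no overlap between the points, and lower for Hdac5, Hdac9, Hdac10 and Sirt7, with overlap in all of these but Hdac9.

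Among the class I deacetylases, of which Hdac1, Hdac2 and Hdac3 serve the Sin3, NuRD, CoREST and NCoR complexes, Hdac2 alone passed. Hdac2 ranged from 29.1 to 35.2 RPKM in WT (median 32.4) and from 34.1 to 41.8 RPKM in R6/1 (median 38.5), and 5 of 9 R6/1 libraries lay above the WT range (log2 fold change 0.22, limma adjusted p 6.42e-04). Its paralogue Hdac1 was at 13.5 ± 1.15 RPKM in WT against 14.2 ± 1.30 RPKM in R6/1 (log2 fold change 0.07, 95% interval -0.04 to 0.19, limma adjusted p 0.297); a difference between the paralogues was not tested. Hdac3, the catalytic subunit of the NCoR complex, was at 35.3 ± 2.70 and 34.7 ± 2.88 RPKM (limma adjusted p 0.724), and Hdac8 at 3.79 ± 0.488 and 3.97 ± 0.429 RPKM (limma adjusted p 0.503). Hdac8 and Hdac6 lie on the X chromosome. Xist, the female-specific RNA, was at most 0.0365 RPKM in any library, so the libraries did not differ in this respect.

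The class IIa deacetylases shuttle between nucleus and cytoplasm under calcium-dependent phosphorylation and repress MEF2 target genes. Of the 4 genes of this class 2 fell, where 23.5% of all tested genes did. Hdac9 (chromosome 12, 34732451 to 35213754, minus strand) ranged from 4.34 to 5.66 RPKM in WT (median 4.91) and from 3.37 to 4.14 RPKM in R6/1 (median 3.82). All 9 R6/1 libraries lay below all 9 WT libraries (log2 fold change -0.36, SE 0.054, limma adjusted p 1.63e-05). Hdac5, the most abundant of the class (chromosome 11, 102055746 to 102091480, minus strand), ranged from 36.0 to 44.6 RPKM in WT (median 39.1) and from 26.9 to 38.6 RPKM in R6/1 (median 34.9). In R6/1, 7 of 9 libraries lay below the WT range and replicates 3, 4 and 6 were lowest (log2 fold change -0.25, SE 0.066, limma adjusted p 0.00364; -0.18 and 0.0374 on own read totals). Hdac4, whose reduction has been studied as a treatment in Huntington mice, was at 9.05 ± 1.64 RPKM in WT against 9.36 ± 0.909 RPKM in R6/1 and did not pass (log2 fold change 0.06, 95% interval -0.11 to 0.22, limma adjusted p 0.585). Hdac7, known from endothelial cells and thymocytes, was at 5.27 ± 0.970 and 4.76 ± 0.694 RPKM (limma adjusted p 0.311).

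Of the class IIb enzymes, Hdac10, known as a polyamine deacetylase (chromosome 15, 88953733 to 88959130, minus strand), fell from a WT range of 2.66 to 4.78 RPKM (median 4.04) to 2.57 to 3.40 RPKM in R6/1 (median 3.03). WT replicates 6 and 1 lay among the R6/1 libraries, and 2 of 9 R6/1 libraries lay below the WT range (log2 fold change -0.31, SE 0.094, limma adjusted p 0.0105; 0.0493 on own read totals). Hdac6, the tubulin deacetylase, was at 11.3 ± 1.43 and 11.3 ± 0.646 RPKM (log2 fold change 0.01, 95% interval -0.13 to 0.14, limma adjusted p 0.947). Hdac11 did not pass, at 74.1 ± 3.84 RPKM in WT against 71.2 ± 3.88 RPKM in R6/1 (log2 fold change -0.06, 95% interval -0.14 to 0.02, limma adjusted p 0.212).

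The sirtuins split by member, with 1 rise, 1 fall and 5 that did not pass (24.8% of all tested genes rose and 23.5% fell). Sirt1, a nuclear deacetylase of histones and transcription factors (chromosome 10, 62781753 to 62844452, minus strand), ranged from 4.53 to 5.52 RPKM in WT (median 5.23) and from 5.66 to 6.92 RPKM in R6/1 (median 6.18), with no overlap (log2 fold change 0.26, SE 0.048, limma adjusted p 1.86e-04). Sirt7, the nucleolar sirtuin linked to ribosomal RNA transcription (chromosome 11, 120479686 to 120486554, minus strand), ranged from 7.20 to 14.0 RPKM in WT (median 11.6) and from 6.74 to 10.1 RPKM in R6/1 (median 7.76). This was the largest fall of the group, yet WT replicate 1 lay near the bottom of both genotypes and 1 of 9 R6/1 libraries lay below the WT range (log2 fold change -0.43, SE 0.101, limma adjusted p 0.00141). On the same strand, 2.41% of its exonic bases are shared with Mafg. Sirt2, whose RNA is known to be rich in oligodendrocytes, was at 53.0 ± 4.10 RPKM in WT against 51.5 ± 4.21 RPKM in R6/1 (log2 fold change -0.04, 95% interval -0.15 to 0.07, limma adjusted p 0.557). The mitochondrial sirtuins Sirt3 (34.3 ± 1.87 and 34.6 ± 2.98 RPKM), Sirt4 (4.44 ± 0.971 and 4.33 ± 0.723 RPKM) and Sirt5 (5.99 ± 0.599 and 6.01 ± 0.881 RPKM) and the chromatin-bound Sirt6 (6.02 ± 0.735 and 6.13 ± 0.587 RPKM) had limma adjusted p between 0.757 and 0.990. On the opposite strand, 9.68% of the exonic bases of Sirt3 are shared with Psmd13 and 3.89% with Ric8.

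Summed over a family, the RPKM of the 10 acetyltransferases lay between 114 and 125 in WT and between 137 and 152 in R6/1, a ratio of means of 1.20. The sum of the 3 coactivators was likewise higher in every R6/1 library, 47.0 to 55.7 RPKM against 57.7 to 67.3 RPKM. The sum of the 11 zinc deacetylases overlapped between genotypes, at 233 ± 6.34 RPKM in WT against 227 ± 7.64 RPKM in R6/1, as did the 7 sirtuins at 120 ± 5.65 and 117 ± 4.99 RPKM. Within the deacetylases the class I sum was 84.5 ± 3.77 RPKM in WT against 90.3 ± 5.23 RPKM in R6/1, and the class IIa sum 58.9 ± 3.95 and 51.2 ± 5.11 RPKM. The ratio of summed acetyltransferases to summed zinc deacetylases ran from 0.488 to 0.533 in WT and from 0.569 to 0.673 in R6/1. These sums repeat the values of their members and were not tested.

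**Figure D4:**
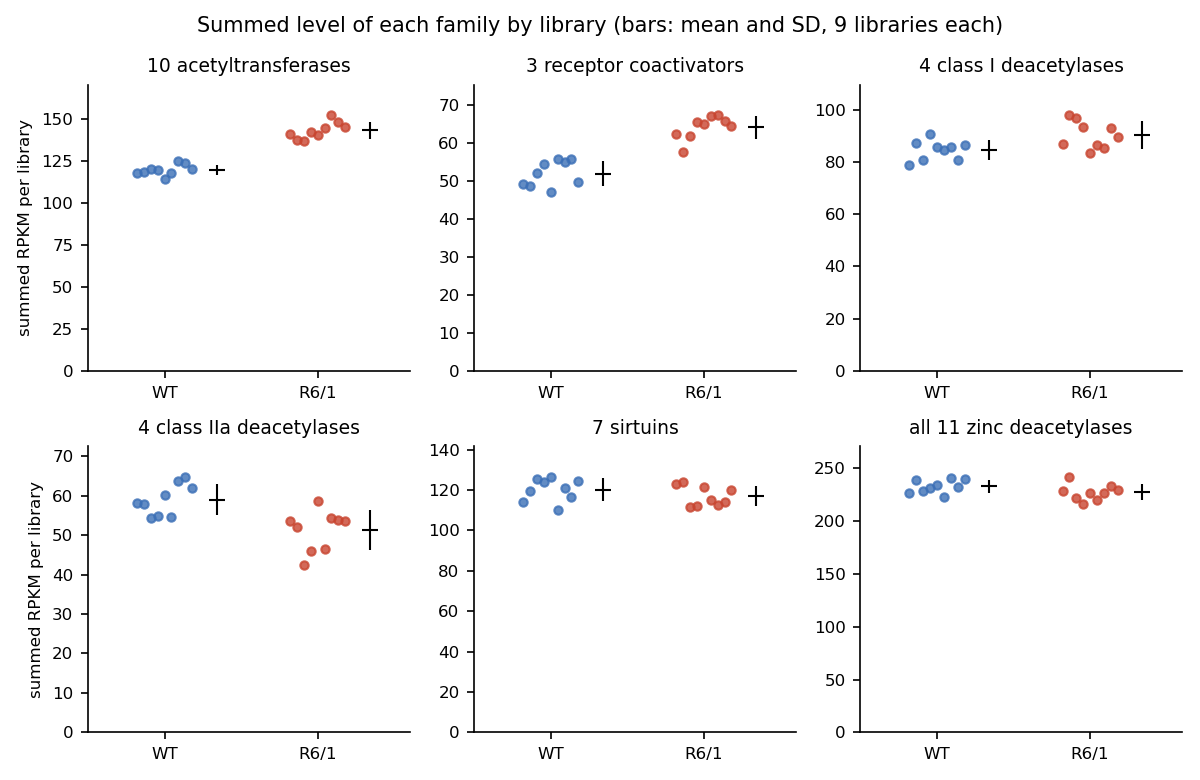
Summed RPKM of each family in each library, WT in blue and R6/1 in red, with mean and SD; axes start at 0. The sums of the acetyltransferases (114 to 125 against 137 to 152) and of the coactivators (47.0 to 55.7 against 57.7 to 67.3) do not overlap between genotypes, while those of the deacetylases and sirtuins do.

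Genes that work with these enzymes were counted in the same fit: 163 genes on 9 lists, of which 160 were tested, 58 rose (36.2%, beside 24.8% of all tested genes) and 24 fell (15.0%, beside 23.5%). On own read totals 86 rose (53.8%, beside 35.4%) and 18 fell (11.2%, beside 17.5%). Of 24 SAGA and ATAC subunits, which carry Kat2a or Kat2b, 10 rose and 1 fell. Sgf29, a reader of methylated histone H3, rose from 6.48 ± 0.546 to 9.55 ± 1.06 RPKM (log2 difference 0.52, limma adjusted p 1.33e-06) and Tada1 from 15.4 ± 0.593 to 19.7 ± 1.01 RPKM, while Yeats2 fell from 5.29 ± 0.635 to 4.32 ± 0.363 RPKM. Of 16 NuA4 subunits, partners of Kat5, 10 rose and 1 fell. Epc2, an enhancer-of-polycomb subunit, rose from 12.7 ± 0.877 to 17.2 ± 1.54 RPKM and Morf4l1, a chromodomain protein, from 126 ± 7.40 to 162 ± 7.50 RPKM. The fall was that of Actl6b, the neuronal actin-like protein shared with BAF complexes, from 41.8 ± 3.76 to 29.4 ± 2.26 RPKM with no overlap (log2 fold change -0.50, limma adjusted p 4.52e-07).

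Of 18 subunits that serve Kat6a, Kat6b, Kat7 and Kat8, 8 rose (44.4%) and 2 fell (11.1%). Over all tested genes 24.8% rose and 23.5% fell, and on own read totals 35.4% and 17.5%. Jade2 rose from 14.3 ± 0.550 to 19.4 ± 1.64 RPKM (log2 difference 0.43, limma adjusted p 1.80e-07), Kansl1 from 17.8 ± 0.857 to 22.5 ± 1.06 RPKM and Jade1 from 6.31 ± 0.540 to 7.75 ± 0.608 RPKM. Of 12 further acetyltransferases 5 rose (41.7%) and 0 fell. Among the rises were the tubulin acetyltransferase Atat1 (16.7 ± 1.43 to 20.2 ± 1.79 RPKM), Taf1 (12.2 ± 0.518 to 14.8 ± 0.833 RPKM) and Gtf3c4 (8.74 ± 0.455 to 10.5 ± 0.467 RPKM). On the erasing side, 12 of 35 subunits of the class I complexes rose (34.3%) and 2 fell (5.71%). Mta3 of the NuRD complex (17.5 ± 1.24 to 23.3 ± 1.46 RPKM), Sap30 (3.38 ± 0.709 to 4.70 ± 0.856 RPKM) and Ing1 (7.19 to 9.58 RPKM in WT, 9.21 to 12.2 RPKM in R6/1) changed most. On own read totals 23 of the 35 rose (65.7%) and 1 fell (2.86%). Of 8 acetyl-lysine readers, 4 rose (50.0%), Brd3 (9.86 ± 0.557 to 11.8 ± 0.921 RPKM) among them. The 1 that fell (12.5%) was Brd9, from 33.6 ± 4.58 to 22.0 ± 1.63 RPKM (log2 difference -0.59, limma adjusted p 8.94e-07).

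The partners of the class IIa deacetylases ran the other way, with 9 of 18 lower (50.0%) and 2 higher (11.1%). Over all tested genes 23.5% were lower and 24.8% higher. On own read totals 6 partners were lower (33.3%) and 2 higher (11.1%), beside 17.5% and 35.4% of all tested genes. Camk2a, the calcium/calmodulin kinase of excitatory synapses, ranged from 942 to 1129 RPKM in WT and from 430 to 537 RPKM in R6/1 (log2 fold change -1.18, SE 0.048, limma adjusted p 2.76e-13). Camk1d fell from 45.3 ± 5.33 to 30.7 ± 3.32 RPKM, whereas Camk2d rose from 8.94 ± 2.19 to 12.7 ± 1.72 RPKM. Of the 12 genes around CREB, 5 rose (41.7%) and 2 fell (16.7%). Cited2, which binds CREB-binding protein and p300, rose from 14.1 ± 1.61 to 20.5 ± 1.11 RPKM with no overlap (log2 fold change 0.53, limma adjusted p 3.46e-07). Crtc1, the activity-regulated CREB coactivator, fell from a WT range of 48.5 to 61.6 RPKM to 40.8 to 50.1 RPKM in R6/1, and Cited1 fell from 0.661 ± 0.208 to 0.385 ± 0.128 RPKM. Of 19 genes of acetyl-CoA and NAD+ metabolism, 4 rose and 6 fell, but 8 rose and 5 fell on own read totals. The list also holds enzymes that use up NAD+, so these counts do not describe supply alone. Parp1 (log2 difference -0.35), Cd38 (-0.40) and Sarm1 (-0.11), which use NAD+, were among the 6 that fell, and Parp2 did not pass. Acss1, a mitochondrial acetyl-CoA synthetase, fell from 10.2 ± 1.11 to 6.76 ± 0.764 RPKM (log2 difference -0.56, limma adjusted p 1.37e-06), and Naprt, which makes NAD+ from nicotinic acid, from 3.79 ± 0.575 to 2.72 ± 0.525 RPKM. Nnmt, which methylates nicotinamide, rose from 0.435 ± 0.354 to 1.32 ± 0.449 RPKM. The other rises on this list were Acly (log2 difference 0.22), Pdha1 (0.17) and Nampt (0.17), and the remaining fall was Acss2 (-0.33).

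**Figure D5:**
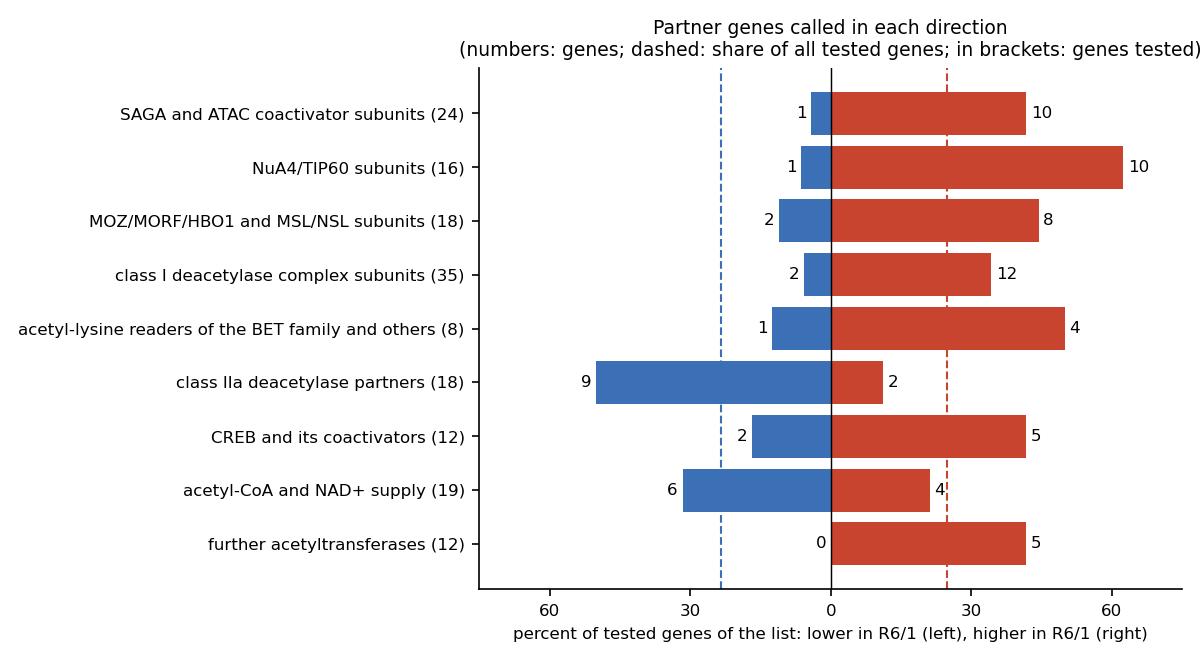
Share of the tested genes on each of the 9 partner lists that was lower (left, blue) or higher (right, red) in R6/1, with the number of genes beside each bar and the share over all tested genes as dashed lines (24.8% higher, 23.5% lower). The NuA4 list reaches furthest to the right with 10 of 16 genes and the class IIa partners furthest to the left with 9 of 18.

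Bulk tissue does not tell fewer cells of a type from less RNA per cell, and markers of several cell types moved with genotype. The counts below stand beside 23.5% of all tested genes that fell and 24.8% that rose. Of 8 oligodendrocyte markers 6 fell, and their summed level ran from 1106 to 1420 RPKM in WT and from 693 to 1170 RPKM in R6/1. Of 7 astrocyte markers 6 fell (1083 to 1417 against 858 to 1101 RPKM), of 6 general neuronal markers 5 fell and 1 rose (1794 to 2154 against 1478 to 1605 RPKM) and of 6 inhibitory neuron markers 5 fell (351 to 428 against 212 to 278 RPKM). All 6 dentate granule markers fell (71.3 to 111 against 42.3 to 53.6 RPKM), as did all 5 CA3 markers (153 to 235 against 107 to 137 RPKM), and of 6 CA1 markers 5 fell and 1 rose (162 to 230 against 124 to 141 RPKM). Of 10 activity-regulated genes 7 fell (116 to 332 against 85.7 to 213 RPKM), of 6 microglial markers 3 (94.4 to 138 against 76.8 to 122 RPKM) and of 6 endothelial markers 2 (36.5 to 68.1 against 35.2 to 63.9 RPKM). The 7 choroid plexus markers were not called and varied widely within both genotypes, from 26.0 to 1078 RPKM in WT and from 39.1 to 1745 RPKM in R6/1. No marker was at 0 in every library, those of the dentate granule, CA1 and CA3 neurons that define the labelled tissue included. The part of cell composition in the changes above was not tested. Without the libraries whose choroid plexus sum was over 3 times the median, WT replicate 3 and R6/1 replicate 3, the counts were 13 higher and 4 lower. R6/1 replicate 4 (1027 RPKM), WT replicate 1 (961 RPKM) and WT replicate 5 (927 RPKM) lay under that limit and stayed in. Leaving out the richest libraries thus does not free the counts of choroid plexus, and it does not bear on the other cell types.

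Lamin B1 domains, the long stretches of chromatin at the nuclear lamina, were given as 1 list per genotype, without replicates. All 34 genes were placed on the annotation, 30 by symbol and 4 by an older symbol. The transcription starts of Hdac2 (chromosome 10, 36694350 to 36721695, plus strand), Hdac9, Kat2b and Ncoa2 lay inside a domain in both genotypes, and that of Hdac8 (X chromosome, 99479978 to 99700698, minus strand) inside a WT domain only, 3.71 Mb from the nearest R6/1 domain. The other 29 starts lay in no domain, so that 14.7% of the group lay in a domain of either genotype, beside 13.4% of 12951 tested genes placed by symbol. The domain genes included 3 that rose and 1 that fell, where 24.8% of all tested genes rose and 23.5% fell. Hdac8, the one whose place differed between the lists, did not pass the test. Sirt1 lay 0.130 Mb from a WT domain and 0.0555 Mb from an R6/1 domain, the nearest of the genes outside.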

How the data were processed

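RNA-seq of hippocampus (stranded messenger RNA kit, per the labels' protocols) gave 9 WT and 9 R6/1 libraries. The submitters' processing notes name TopHat, DESeq2 and mm9 for RNA-seq and Bowtie for ChIP-seq; the counter, its strand setting and versions are not given in the sources used here. The authors deposited RPKM per gene symbol and a comparison table with the mean normalized count (a signal averaged over libraries), log2 fold change, test score, p-value and adjusted p-value. The deposited domain lists give 1 score per domain, which was not used; no per-sample column stayed out. RPKM times the mean normalized count over the mean RPKM is a whole multiple of 1 step per library for 99.89% to 99.92% of values (tolerance 0.05 of a read), which gave the reads. Precision is set by these reads and by 9 libraries per genotype.

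The test was limma 3.58.1 (R 4.3.3), lmFit and eBayes with a trend on log2(RPKM + 0.5), for genes averaging 0.5 RPKM or more, and was tested on simulated data. Alternatives were pseudocounts of 0.1 and 1, no filter or 2 RPKM, 3 other scalings, the replicate number as a block, no trend, a covariate for Xist, the authors' table, and leaving out each library or the choroid plexus-rich ones (over 3 times the median marker sum). Groups follow the labels. The members and lists were chosen with earlier results of these data known. Every member is named; full statistics (SE included) are given for the 12 called members with the largest changes, and partner genes are the 3 called ones with the largest change per list, of which 1 is not reported here. Gene positions are from GENCODE vM1 on NCBIM37 (mm9), promoters from RefSeq on GRCm38.p6. ATAC-seq was not analysed here.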

Additional observations from a re-analysis of the deposited data

Results flagged for a closer look

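In 4 of the 68 groups of 9 libraries (34 genes in 2 genotypes), 1 library stood apart from the others by Dixon's ratio; about 1 group in 20 does so by chance, here 3.40. All 4 were WT libraries. Hdac4 was at 13.1 RPKM in WT replicate 1, above the next at 9.89, and without it the log2 fold change was 0.12 (limma adjusted p 0.0820) in place of 0.06. Sin3b was at 27.9 RPKM in the same library, above the next at 22.5, and its log2 fold change was -0.01 without it and -0.05 with it. Kat2a was at 22.7 RPKM in WT replicate 3, above the next at 21.0 (log2 fold change 0.28 without it, 0.26 with it). Sin3a was at 7.66 RPKM in WT replicate 9, below the next at 8.31 (log2 fold change 0.19 without it, 0.21 with it). None of the 4 changed its side of the threshold.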

How the results depend on the processing

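Under all 30 alternatives, 18 of which left out 1 library each, the 17 called members were called in the same direction, with 0.0493 as the highest limma adjusted p (Hdac10, RPKM recomputed from own read totals). Of the other 17, only Kat6b passed in any: on own read totals (log2 fold change 0.18, limma adjusted p 0.0369) and with the replicate number as a block (0.12, 0.0249). With the replicate block 14 members were higher and 4 lower, and 7133 genes were called in place of 6980. Same-numbered libraries are not said to share anything, and their deviations correlated between -0.05 and 0.24 over 9 pairs, above 0.1 in 3, so the numbers were not taken as pairs. Leaving out single libraries gave 6665 to 7175 called genes and 77 to 84 called partner genes in place of 82, which were 104 on own read totals and 76 without the choroid plexus-rich libraries. On own read totals the sign of 7 uncalled members changed (Hdac3, Hdac11, Sirt2, Sirt4, Sirt5, Ncoa3 and Sin3b), and the share of higher among all calls was 66.9% in place of 51.4%. The 5 members in lamin B1 domains were also those whose gene body overlapped one. At 69 to 5218 reads per gene and library, changes within the intervals given could be missed, and so could somewhat larger ones. A member that was not called is thus not shown to be unchanged.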

Other observations

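No single library was the lowest of its genotype for all called members, but some members shared their low libraries. WT replicates 1 and 6 lay below every other WT library for Hdac6, Hdac7, Hdac10, Sirt4, Sirt6 and Sirt7. Without WT replicate 1 the log2 fold changes of Sirt7 and Hdac10 were -0.51 and -0.36, in place of -0.43 and -0.31. What these libraries share was not tested. Of the 13 members that rose, R6/1 replicate 2 was the lowest R6/1 library for 6, Crebbp, Ep300 and Kat6a among them, and without it their log2 fold changes were 0.51, 0.35 and 0.23. WT replicate 5 was the lowest WT library for 5 of the 13. Hdac2 was 2.38 ± 0.242 times as abundant as Hdac1 in WT and 2.65 ± 0.288 times in R6/1, with 3 of 9 R6/1 libraries above the WT range. Other partners of the class IIa deacetylases, chosen for naming after their values were seen, were the kinase Camk4 (log2 fold change -0.44, limma adjusted p 1.11e-05) and the transcription factors Mef2a (-0.19, 0.00317), Mef2d (-0.11, 0.0339) and Mef2c (-0.12, 0.611), of which the last did not pass. Camk2b (-0.49, 2.72e-06) and Ywhah (-0.46, 7.13e-07) fell by more. On that list 9 of 18 fell and 2 rose, Camk2g (0.19, 0.00572) among the rises.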
